A study of Mus musculus with 6 samples.

Results

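The liver X receptors (LXR alpha, gene Nr1h3, and LXR beta, gene Nr1h2), their shared partner RXR alpha (Rxra), the fatty acid sensor PPAR gamma (Pparg) and genes they are known to control were followed in F4/80+ cells of mouse bone marrow. The 10 genes are Nr1h3, Nr1h2, Rxra, Pparg, the cholesterol exporters Abca1 and Abcg1, the lipoprotein lipase Lpl, the apolipoproteins Apoe and Apoc2, and the ubiquitin ligase Mylip. They were taken by gene symbol, and all 10 were found among the 11489 genes of the deposited table. They had been picked with their difference between the sorted groups already known, so that difference is given here as a description, without a p-value.

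RNA sequencing was done on 3 libraries of F4/80+Epor-eGFP+ cells and 3 libraries of F4/80+Epor-eGFP- cells. F4/80 is a macrophage surface protein, eGFP is a green fluorescent protein, and Epor encodes the erythropoietin receptor, whose reporter divides the sort. The labels call both groups bone marrow macrophages and give erythroblastic island macrophages as the cell type of both. The sources used here do not give strain, age, sex, the build of the reporter allele or the number of animals per library, so p-values measure the spread between libraries, which may be technical. The unit is FPKM, a fragment count divided by gene length and by library size, which allows levels to be compared between genes, and their read depth is unknown. Libraries are called by their column number, 0 to 2, and "with" or "without the reporter" stands for Epor-eGFP+ or Epor-eGFP-.

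Both sorts were mixed by their transcripts. Epor was at 5.96 ± 2.26 FPKM (SD, n = 3) in Epor-eGFP+ and 0.335 ± 0.105 in Epor-eGFP-, and Adgre1, which encodes F4/80, was at 167 ± 65.5 and 136 ± 3.85. The 9 marrow macrophage markers, such as Vcam1, Cd163 and the C1q chains, passed the test as higher in all 9 cases, with a summed level of 1751 to 6470 FPKM in Epor-eGFP+ libraries and 102 to 141 in Epor-eGFP- libraries. Neutrophil markers summed to 12725 to 16647 and 23468 to 36970 FPKM, and monocyte markers to 1206 to 1508 and 2908 to 4106, with 8 of 8 and 7 of 7 lower in Epor-eGFP+. The 4 promyelocyte markers (7532 to 9353 FPKM against 1428 to 2673) and 6 of 9 tested erythroid markers (307 to 1061 against 18.3 to 372) were higher. Of 6 adipocyte markers, none is listed in the table, and the 4 listed stroma markers summed to 7.85 to 12.9 FPKM with the reporter and 0.904 to 1.46 without it (3 of 3 tested higher). Osteoclast markers summed to 147 to 280 FPKM with the reporter and 71.8 to 93.5 without it (3 of 4 tested higher). Basophil and mast cell (3 of 4) and dendritic markers (1 of 2) were called only lower, and endothelial (1 of 2), megakaryocyte (1 of 5) and B lineage markers (1 of 6) only higher. Eosinophil (1 of 6 higher, 3 lower) and T and NK markers (1 of 3 higher, 2 lower) had calls both ways. The part of these cell types in the results below was not tested. In such bulk samples, fewer cells of a type and less RNA per cell cannot be told apart.

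LXR alpha and beta are nuclear receptors that are activated by oxidised forms of cholesterol and bind DNA as pairs with RXR, on direct repeats of a hexamer close to AGGTCA spaced by 4 bases. In macrophages, which take up cholesterol with the cells they engulf, they are known to switch on Abca1, Abcg1 and Apoe, which carry cholesterol out of the cell, and Mylip, which lowers lipoprotein uptake. PPAR gamma also pairs with RXR, responds to fatty acids, and is known to act on Nr1h3 and Lpl.

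Upstream sequences of 3 LXR targets are shown, picked after their values were seen because they behaved differently here. Each has the 250 bases before an annotated start, on the strand of the gene, from the RefSeq promoter table (GRCm38.p6). Apoe has other annotated starts in that table, whose windows are not shown. Capitals mark matches to the patterns given below.
Abca1, chr4:53159896-53160145, minus strand: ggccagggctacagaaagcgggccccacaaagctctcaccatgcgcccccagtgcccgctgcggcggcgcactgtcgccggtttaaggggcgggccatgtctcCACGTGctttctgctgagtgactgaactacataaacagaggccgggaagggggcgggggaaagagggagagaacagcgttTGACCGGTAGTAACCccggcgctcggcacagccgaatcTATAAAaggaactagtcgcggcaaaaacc
Apoe, chr7:19699189-19699438, minus strand: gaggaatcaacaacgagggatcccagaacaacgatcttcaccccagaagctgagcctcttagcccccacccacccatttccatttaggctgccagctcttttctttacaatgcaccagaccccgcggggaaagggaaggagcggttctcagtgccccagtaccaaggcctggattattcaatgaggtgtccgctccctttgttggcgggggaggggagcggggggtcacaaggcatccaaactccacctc
Mylip, chr13:45389492-45389741, plus strand: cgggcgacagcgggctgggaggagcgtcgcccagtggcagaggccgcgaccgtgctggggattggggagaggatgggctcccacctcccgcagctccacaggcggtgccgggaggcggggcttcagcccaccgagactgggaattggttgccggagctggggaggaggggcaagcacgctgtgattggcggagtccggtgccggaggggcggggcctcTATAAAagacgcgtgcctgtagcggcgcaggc

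The Abca1 window holds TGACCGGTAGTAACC, which begins 67 bases before the start and reads GGTTACTACCGGTCA on the other strand. It matches the direct repeat pattern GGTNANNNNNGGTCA, a form of the LXR element loosened after the Abca1 sequence had been seen. Searched on both strands, that pattern was in 58 of 32851 windows of the same length (0.177%), and in 1 of the 14 windows of the 8 genes that the table covers. The E-box CACGTG, which begins 147 bases before the Abca1 start, was in 6.02% of all windows, and TATAAA, in the Abca1 and Mylip windows shown, in 12.4%. The shorter repeat GGTNANNGGTCA, of the kind that PPAR and RXR pairs bind, was in 0.356% of all windows and in none of the 14. The hexamer AGGTCA was in 14.0% of all windows and in 4 of the 14, upstream of Rxra, Pparg and Apoc2. A further pattern, AGGAAGT, close to the site of the myeloid factor PU.1, was in 7.69% of all windows and in none of the 14. The patterns do not overlap in the windows shown.

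Of the LXR pair, Nr1h3 was far higher in Epor-eGFP+ cells while Nr1h2 was at nearly the same level in both groups. Nr1h3, the LXR form most tied to macrophages, liver and fat, is on chromosome 2 (91184061 to 91202834, minus strand). In library order, here and below, it was at 2.04, 1.48 and 1.82 FPKM without the reporter and at 31.2, 22.4 and 60.9 with it. The lowest Epor-eGFP+ library lay above every Epor-eGFP- library, and library 2 stood highest. The means were 1.78 ± 0.285 and 38.2 ± 20.1 FPKM (SD, n = 3), a 21.5-fold difference, and 15.1-fold without Epor-eGFP+ library 2. On the log2(FPKM + 1) scale the difference was 3.70 (SE 0.33). Its level ranked between the 10.5 and 13.9 percentiles of all listed genes in Epor-eGFP- libraries and between the 69.8 and 89.0 percentiles in Epor-eGFP+ libraries. Reads of a non-coding transcript on the same strand, Gm13783, which overlaps Nr1h3 by 6873 bases and is not in the table, may be counted with it.

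Nr1h2, the LXR form present in most tissues (chromosome 7 from 44549616 to 44553951, minus strand), was at 48.7, 47.8 and 53.3 FPKM without the reporter and at 41.4, 40.4 and 48.4 with it. The groups overlapped, at means of 49.9 ± 2.98 and 43.4 ± 4.33 FPKM (log2 difference −0.20, SE 0.09). Nr1h3 therefore made up 4.03%, 3.0% and 3.29% of the summed FPKM of both LXR genes in the Epor-eGFP- libraries and 43.0%, 35.7% and 55.7% in the Epor-eGFP+ libraries. In Epor-eGFP+ library 2, and in no other library, Nr1h3 was above Nr1h2.

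Rxra, the common partner (chromosome 2 from 27676440 to 27762957, plus strand), was at 25.7, 25.2 and 22.9 FPKM without the reporter. With the reporter it was at 25.1, 15.7 and 41.0 FPKM, so the Epor-eGFP+ libraries lay on both sides of the Epor-eGFP- range. The log2 difference was 0.04 (SE 0.30), and −0.29 without Epor-eGFP+ library 2.

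Pparg, the fatty acid receptor (chromosome 6 from 115360951 to 115490399, plus strand), was at 12.2, 6.66 and 10.9 FPKM without the reporter and at 32.3, 23.1 and 62.2 with it. The groups did not overlap, and the order of the Epor-eGFP+ libraries was that of Nr1h3. Its mean was 3.95-fold higher in Epor-eGFP+ (39.2 ± 20.4 against 9.92 ± 2.91 FPKM; log2 difference 1.80, SE 0.37), and 2.79-fold higher without library 2. Unlike Nr1h3, Pparg thus had a clear level in the Epor-eGFP- libraries too, where it was above Nr1h3 in each of them. The table gives 1 value per gene, so transcripts from its separate starts, and from the antisense gene Gm44079, which overlaps it by 13176 bases, are not told apart.

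**Figure D1:**
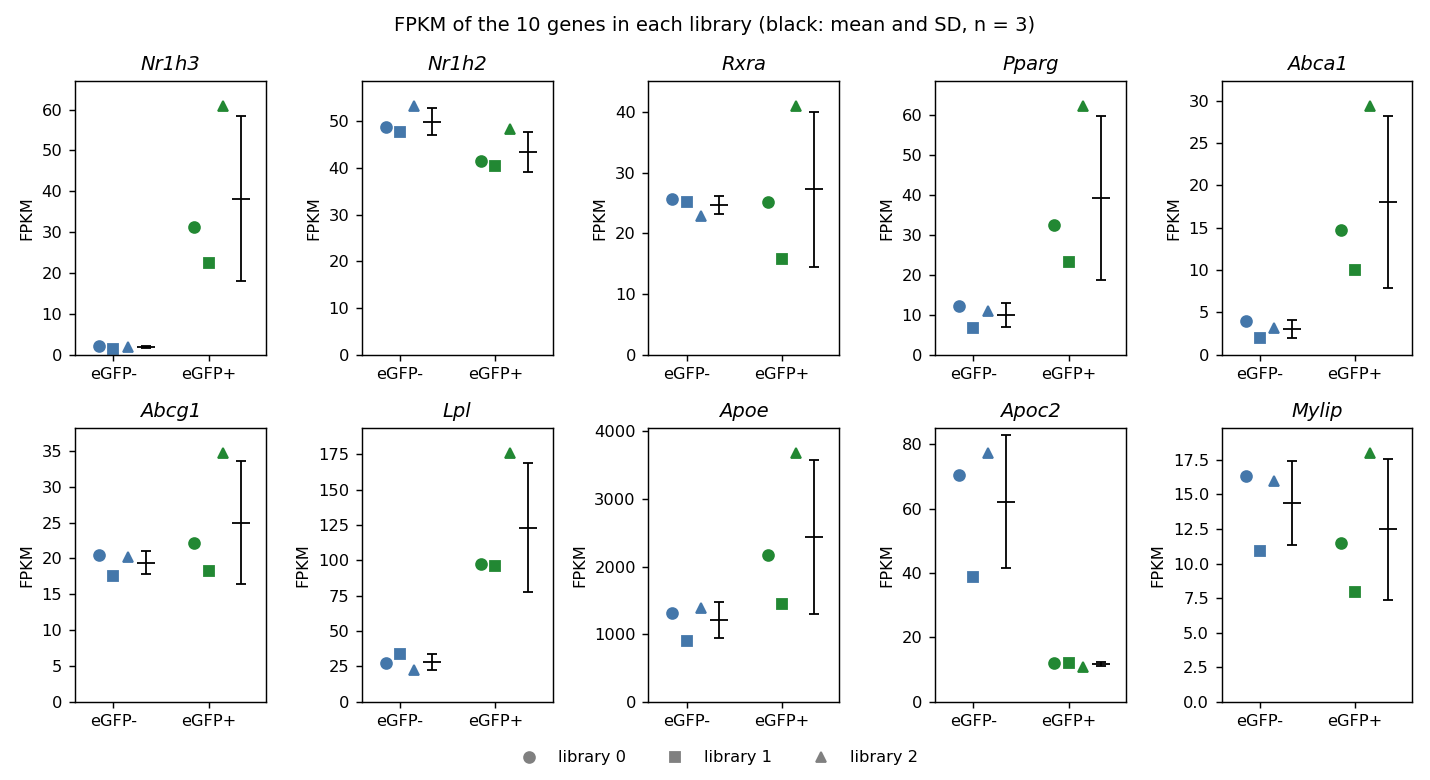
FPKM (vertical axes, each from 0) of the 10 genes in the 3 Epor-eGFP- libraries (blue) and the 3 Epor-eGFP+ libraries (green), with the mean and SD in black and a symbol for each library number. Nr1h3, Pparg, Abca1, Lpl and Apoe lie higher in every Epor-eGFP+ library, Apoc2 lies lower in every one, and in the other panels the groups overlap.

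The 2 cholesterol exporters differed in how they divided between the groups. Abca1, which loads cholesterol onto lipid-poor apolipoprotein (chromosome 4 from 53030787 to 53159895, minus strand), was at 3.99, 1.91 and 3.10 FPKM without the reporter and at 14.7, 9.99 and 29.4 with it. The groups did not overlap, and the means of 3.0 ± 1.04 and 18.0 ± 10.1 FPKM were 6.01-fold apart, or 4.12-fold without Epor-eGFP+ library 2 (log2 difference 2.15, SE 0.38). Abcg1, which passes cholesterol on to mature HDL (chromosome 17 from 31057675 to 31117988, plus strand), was at 20.4, 17.6 and 20.2 FPKM without the reporter and at 22.1, 18.2 and 34.7 with it. Here the groups overlapped, and the log2 difference of 0.30 (SE 0.22) was 0.05 without Epor-eGFP+ library 2. Abcg1 was above Abca1 in every library, by a ratio of 5.11 to 9.20 in Epor-eGFP- and of 1.18 to 1.82 in Epor-eGFP+.

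Lpl, the lipase that frees fatty acids from lipoproteins (chromosome 8 from 68880491 to 68907448, plus strand), was at 27.3, 33.8 and 22.5 FPKM without the reporter and at 97.1, 96.2 and 176 with it. The groups were far apart, with a mean 4.41-fold higher in Epor-eGFP+ (123 ± 45.6 against 27.9 ± 5.65 FPKM; log2 difference 2.06, SE 0.26).

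Apoe and Apoc2 lie in a single cluster on chromosome 7 and stood on opposite sides. Apoe, the apolipoprotein that macrophages secrete with exported cholesterol (from 19696109 to 19699188, minus strand), was among the most abundant transcripts in every library, at the 99.3 percentile or above. It was at 1319, 898 and 1393 FPKM without the reporter and at 2177, 1443 and 3681 with it. The groups did not overlap but nearly touched, Epor-eGFP+ library 1 at 1443 FPKM lying just above Epor-eGFP- library 2 at 1393 FPKM (log2 difference 0.94, SE 0.34). Apoc2, the cofactor that activates Lpl (from 19671579 to 19677941, minus strand), was at 70.5, 38.7 and 77.3 FPKM without the reporter and at 11.9, 12.0 and 10.9 with it. It was the only one of the 10 genes that was lower in every Epor-eGFP+ library, 5.36-fold by the means of 62.1 ± 20.6 and 11.6 ± 0.602 FPKM (log2 difference −2.27, SE 0.24). Apoe over Apoc2 was 18.7, 23.2 and 18.0 in the Epor-eGFP- libraries and 183, 120 and 337 in the Epor-eGFP+ libraries. Gm44805, a protein-coding gene model that spans Apoc4 and most of Apoc2, shares 6358 bases with Apoc2, so the split of reads between them is uncertain.

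Mylip, a ubiquitin ligase that limits lipoprotein uptake (chromosome 13 from 45389742 to 45412022, plus strand), was at 16.3, 10.9 and 16.0 FPKM without the reporter and at 11.5, 7.94 and 18.0 with it. The groups overlapped (log2 difference −0.24, SE 0.28), and without Epor-eGFP+ library 1 the difference was 0.02. Set beside the sequences above, the Abca1 window has the direct repeat and the Apoe and Mylip windows do not have these letters. As the pattern was loosened after the Abca1 sequence had been seen, its match there was fixed in advance. This says nothing about binding elsewhere at these genes, and a part of the repeat in the values was not tested.

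**Figure D2:**
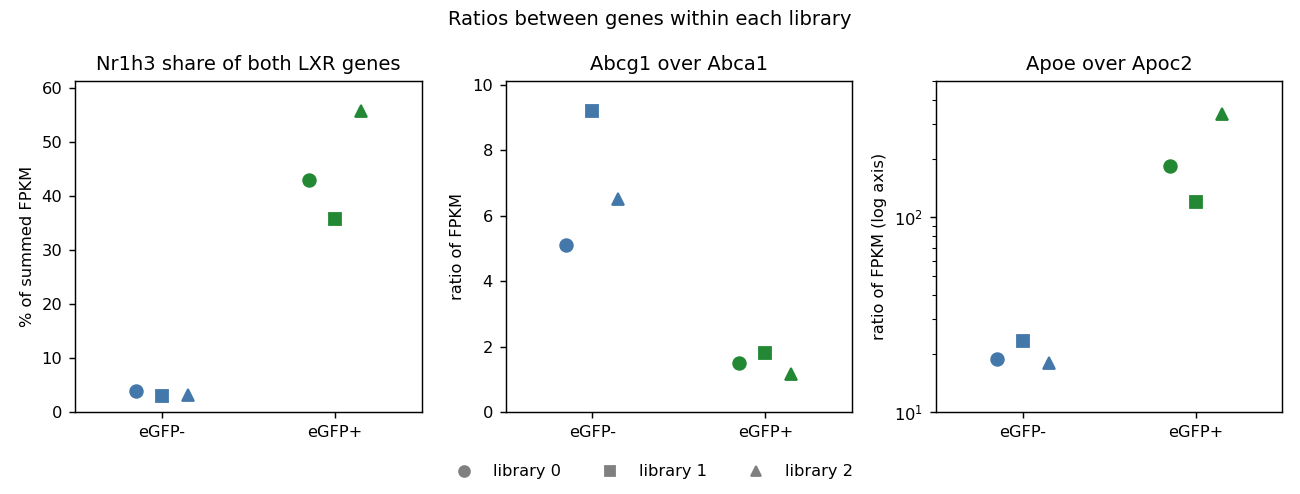
Within-library values for the 3 Epor-eGFP- (blue) and 3 Epor-eGFP+ (green) libraries, with a symbol for each library number: the share of Nr1h3 in the summed FPKM of Nr1h3 and Nr1h2 (percent), the ratio of Abcg1 to Abca1, and the ratio of Apoe to Apoc2 (log axis). The Nr1h3 share is 3.0% to 4.03% in Epor-eGFP- and 35.7% to 55.7% in Epor-eGFP+, and in each panel the groups stand apart.

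By the fit over all genes, 4 of the 10 passed an adjusted p of 0.05 as higher in Epor-eGFP+ (Nr1h3, Pparg, Abca1 and Lpl), where 22.7% of the 10964 tested genes did, and 1 as lower (Apoc2), where 26.3% did. The groups did not overlap in 6 of the 10, where 60.4% of tested genes did not, 5 of them higher and 1 lower, against 28.4% and 31.9% of tested genes. As the 10 were chosen on this contrast, nothing is read from these counts. All 10 had a mean of at least 1 FPKM and were in the fit.

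The order of levels changed between the groups. In Epor-eGFP- the means ran from Apoe through Apoc2, Nr1h2, Lpl, Rxra, Abcg1, Mylip, Pparg and Abca1 down to Nr1h3. Apoc2 and Nr1h2, Lpl and Rxra, Mylip and Pparg, and Abca1 and Nr1h3 were neighbours whose ranges over libraries overlapped. In Epor-eGFP+ the order was Apoe, Lpl, Nr1h2, Pparg, Nr1h3, Rxra, Abcg1, Abca1, Mylip and Apoc2, and from Nr1h2 downwards every neighbour overlapped the next.

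Within Epor-eGFP+, 9 of the 10 genes stood highest in library 2, then library 0, then library 1, an order that 23.9% of tested genes had, and Apoc2 alone did not. Library 2 over library 1 was 2.94 for Abca1, 2.71 for Nr1h3, 2.69 for Pparg, 2.61 for Rxra, 2.55 for Apoe and 2.27 for Mylip. Lpl and Abcg1 followed at 1.82 and 1.90, Nr1h2 at 1.20 and Apoc2 at 0.908. This ratio was above 1.5 for 8 of the 10, against 8.74% of tested genes, whose median was 0.966. The marrow macrophage markers had larger ratios, from 3.35 for C1qb to 5.45 for Timd4, and the 7 monocyte markers ran from 0.529 to 0.847. The summed erythroid markers had a ratio of 3.46, with Hba-a1 at 7.63 and Hbb-bs at 40.7, while the endothelial marker Stab2 was at 4.95 and the stroma marker Kitl at 4.49. Rxra, Mylip and Abcg1, whose groups overlapped, differed between the Epor-eGFP+ libraries in the same order, and the part of these cell types in that spread was not tested. Within Epor-eGFP-, 8 of the 10 were lowest in library 1, as were 36.3% of tested genes, the exceptions being Rxra and Lpl.

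**Figure D3:**
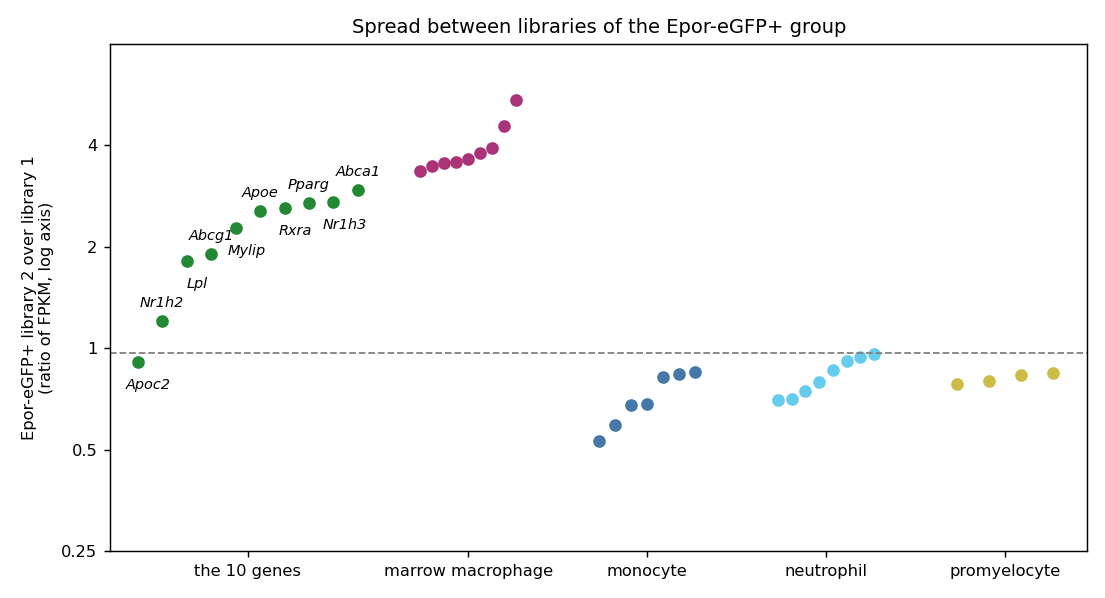
FPKM in Epor-eGFP+ library 2 divided by library 1 (log axis) for the 10 genes, labelled, and for the marker genes of 4 cell types, 1 point per gene; the dashed line is the median of all tested genes, 0.966. The macrophage markers lie at 3.35 and above, 8 of the 10 genes lie between 1.82 and 2.94, and the monocyte markers lie below 1.

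Set against macrophage markers of the same library, the values depended on the marker. Per 100 FPKM of Vcam1, an adhesion molecule of island macrophages, Nr1h3 was at 5.06, 4.84 and 7.41 FPKM without the reporter and at 7.48, 8.52 and 6.09 with it, and the groups overlapped. Pparg per 100 FPKM of Vcam1 was at 30.3, 21.8 and 44.3 and at 7.74, 8.78 and 6.22, so that it stood higher in each Epor-eGFP- library. Per 100 FPKM of the summed C1q chains, Nr1h3 was at 2.89 ± 0.414 in Epor-eGFP- and 1.54 ± 0.230 in Epor-eGFP+, Pparg at 15.9 ± 3.99 and 1.58 ± 0.241, Abca1 at 4.77 ± 1.16 and 0.714 ± 0.0763, and Apoe at 1966 ± 532 and 99.8 ± 17.6. By that measure each of these 4 genes stood lower in every Epor-eGFP+ library. The divisor sets this direction, so nothing is read from it. By the means, the C1q chains were 37.9-fold (C1qb) to 44.6-fold (C1qa and C1qc) higher in Epor-eGFP+, above the 21.5-fold of Nr1h3. Nr1h2, at nearly the same level in both groups, likewise went from 82.7 ± 18.8 to 2.08 ± 1.08. Vcam1 was 17.6-fold higher, so the same limit holds for Pparg per Vcam1.

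The genes with the most similar profile were sought by the root mean square difference of log2(FPKM + 1), centred on each gene's mean, over the 6 libraries. This choice uses the difference between the groups, so the values of the genes found are a description, with no test. Nearest to Nr1h3 were Hebp1, which encodes a heme-binding protein (difference 0.15), the adhesion molecule gene Cadm1 (0.16) and Paqr9 (0.17), and the nearest of the 10 was Abca1, at 0.79. Hebp1 was at 3.25 ± 0.171 FPKM without the reporter and 50.3 ± 25.7 with it. Nearest to Pparg were Tmem26 (0.08), the acyltransferase gene Agpat3 (0.08) and Pdlim4 (0.11), with Abca1 at 0.18. Agpat3 was at 4.70 ± 1.23 and 18.7 ± 8.76 FPKM. Nearest to Abca1 were the transporter gene Abcg3 (0.13), Tmem37 (0.15) and the cathepsin gene Ctsf (0.18). Abcg3 was at 8.59 ± 1.16 and 44.9 ± 22.8 FPKM. Nearest to Apoe were the lipid hydrolase gene Abhd12 (0.05), the phagosomal metal transporter gene Slc11a1 (0.07) and Dbndd2 (0.10). Abhd12 was at 45.1 ± 8.67 and 91.0 ± 41.3 FPKM.

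Beyond the 10, 82 genes of 6 pathway lists were tested with limma on log2(FPKM + 1), with p-values adjusted over all 10964 genes. Of these, 18 rose, 32 fell and 32 had no call. So 61.0% were called, against 49.0% of all tested genes (22.7% higher and 26.3% lower). The median log2 fold change was −0.11 against −0.01. The same shares of all tested genes are the background for the counts of each list below. Without Epor-eGFP+ library 0, 11 of the pathway genes rose. All lists were chosen with earlier results of these data known, so these counts and medians, and those of each list below, are a description. From each list, genes were named among those called, by largest change, so their p-values describe the fit and are not taken as support. Of the genes that rose, Mertk, Clu and Ppargc1b reached the mean of 1 FPKM needed for the fit only through Epor-eGFP+.

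Of 20 tested LXR targets outside the 10, 9 rose, 2 fell and 9 had no call, with a median log2 fold change of 0.36, and 5 rose without Epor-eGFP+ library 0. Cd5l, a secreted inhibitor of macrophage death (5.41, SE 0.62), and Mertk, a receptor for apoptotic cells (4.12, SE 0.38), rose most. Both are among the 9, and their rise was known before they were listed, so it is a description, without a p-value. The transglutaminase Tgm2 rose by 1.70 (SE 0.45, limma adjusted p = 0.0189), with an adjusted p of 0.0563 without Epor-eGFP- library 1, 0.0507 without Epor-eGFP- library 2 and 0.0648 without Epor-eGFP+ library 0. Smpdl3a, a phosphodiesterase, and Arl4c, a small GTPase tied to cholesterol transport, fell by 1.59 and 0.75 on the log2 scale and were the 2 lower targets. Srebf1, the LXR-controlled regulator of fat synthesis, was at 27.1, 27.9 and 28.0 FPKM in Epor-eGFP- and 28.9, 29.5 and 34.3 in Epor-eGFP+, with no call (limma adjusted p = 0.171, and 0.0329 with libraries rescaled to a common total). Smpdl3a, Arl4c and Srebf1 were singled out after their values were seen. The macrophage marker sum was higher by far in the Epor-eGFP+ libraries, as given above, and its part in these rises was not tested.

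Of 13 tested PPAR targets, 2 rose, 2 fell and 9 had no call (median 0.02). Angptl4, a secreted inhibitor of lipoprotein lipase, rose from 2.27 ± 0.759 to 11.6 ± 3.62 FPKM (1.94, SE 0.26, limma adjusted p = 0.00157). Cd36, a scavenger receptor for fatty acids and oxidised LDL, rose from 9.19 ± 3.86 to 19.1 ± 3.01 FPKM (1.04, SE 0.29, limma adjusted p = 0.0220, and 0.0734 without Epor-eGFP+ library 0). Dgat1, which makes triglyceride, fell by 0.88 (SE 0.15, limma adjusted p = 0.00331). Cpt1a, which takes fatty acids into mitochondria, fell by 0.63 (SE 0.16, adjusted p = 0.0181), with a limma adjusted p of 0.0579 without Epor-eGFP- library 0, 0.0596 without Epor-eGFP+ library 0 and 0.0503 without Epor-eGFP+ library 1. The counts shifted with single libraries: 6 rose and 1 fell without Epor-eGFP+ library 1, 1 rose and 1 fell without Epor-eGFP+ library 0, and 2 rose and 1 fell without Epor-eGFP- library 0.

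Among 7 tested receptors that pair with RXR, 4 fell and 1 rose (median −0.46). The retinoic acid receptors Rara and Rarg fell from 58.2 ± 12.6 to 14.8 ± 1.34 FPKM and from 41.4 ± 8.08 to 11.8 ± 0.520 FPKM (−1.88, SE 0.15, and −1.71, SE 0.13; limma adjusted p = 0.000430 and 0.000388). Nr4a1, an early response receptor, fell by 1.70 (SE 0.30). Thra, a thyroid hormone receptor, rose by 0.47 (SE 0.09, limma adjusted p = 0.00545, and 0.0902 without both libraries numbered 0). The neutrophil and monocyte marker sums were lower in the Epor-eGFP+ libraries as well, and their part in these falls was not tested.

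Of 16 coregulators of nuclear receptors, 9 fell, 3 rose and 4 had no call (median −0.34). The acetyltransferases Ep300 and Crebbp fell by 0.80 and 0.75 on the log2 scale (SE 0.09 and 0.08), and the coactivators Ncoa1 and Ncoa3 by 0.80 and 0.73 (SE 0.09 and 0.07), with limma adjusted p of 0.000699 to 0.000957. Ncor1, the corepressor that holds unliganded LXR silent, was at 43.4, 48.3 and 40.9 FPKM in Epor-eGFP- and 39.5, 44.8 and 38.8 in Epor-eGFP+, with no call (limma adjusted p = 0.373), and was singled out after its values were seen.

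Other genes of cholesterol handling mostly fell, 7 of 12 tested against 2 that rose and 3 without a call (median −0.53), and 1 rose without Epor-eGFP+ library 0 or library 2. Abca7, a relative of Abca1, fell from 48.6 ± 3.83 to 23.7 ± 2.2 FPKM (−1.01, SE 0.10, limma adjusted p = 0.000606), in the opposite direction to the Abca1 values. Cyp27a1, which makes an oxysterol that activates LXR, fell by 0.91 (SE 0.21, limma adjusted p = 0.0112, and 0.0989 without both libraries numbered 0). Soat1, which esterifies cholesterol for storage, fell by 0.65 (SE 0.16, limma adjusted p = 0.0136, and 0.0514 without Epor-eGFP+ library 0). Lipa, the lysosomal lipase that frees cholesterol from its esters, rose from 48.7 ± 8.23 to 118 ± 45.1 FPKM (1.20, SE 0.27). Its limma adjusted p was 0.00988, and 0.0907 without both libraries numbered 0. Of 14 tested lipoprotein receptors, lipases and apolipoproteins, 8 fell, 1 rose and 5 had no call (median −0.42). Apobr, a receptor for apolipoprotein B, and Sorl1, a sorting receptor, fell by 1.36 and 1.35 on the log2 scale (SE 0.17 and 0.12; limma adjusted p = 0.00128 and 0.000546). Clu, which encodes clusterin, was the only one that rose (1.21, SE 0.24, limma adjusted p = 0.00675).

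**Figure D4:**
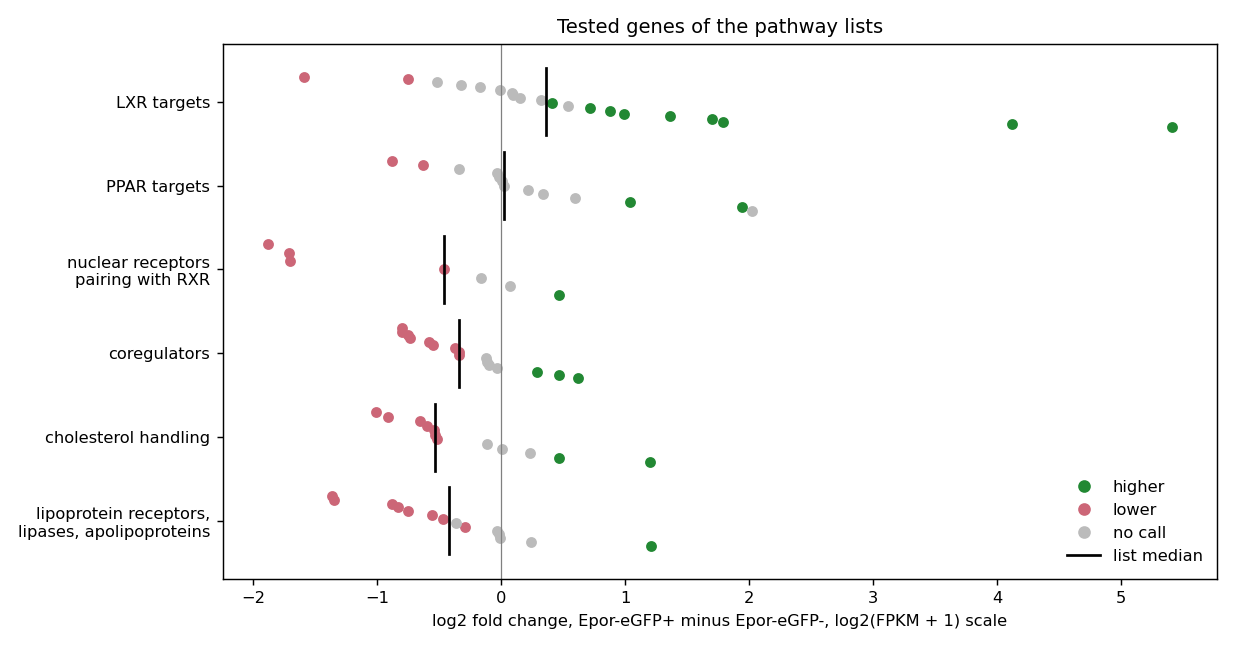
Log2 fold change (Epor-eGFP+ minus Epor-eGFP-, log2(FPKM + 1) scale) of each tested gene in the 6 pathway lists, 1 point per gene, coloured by whether it was called higher, called lower or not called by limma, with the list median as a black bar. The LXR target median is 0.36, and the medians of the receptor, coregulator, cholesterol and lipoprotein lists lie from −0.34 to −0.53.

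Of the genes around Apoe and Apoc2 on chromosome 7, 6 were in the table, of which 2 rose and none fell (33.3% called, against 49.0% of all tested genes). Apoc1, an apolipoprotein gene between them, was at 6.70, 5.82 and 8.82 FPKM in Epor-eGFP- and at 7.78, 4.52 and 19.5 in Epor-eGFP+, with no call (0.32, SE 0.44, limma adjusted p = 0.581), and its log2 difference was −0.21 without Epor-eGFP+ library 2. Tomm40, a mitochondrial import gene, rose from 26.6 ± 2.72 to 50.8 ± 4.50 FPKM (0.91, SE 0.10, limma adjusted p = 0.000890). Pvrl2 rose from 0.745 ± 0.0677 to 1.99 ± 0.511 FPKM (0.77, SE 0.15), but reached the mean needed for the fit only through Epor-eGFP+. Clptm1 and Relb had no call (limma adjusted p = 0.421 and 0.288). Bcl3 had none either (−0.73, limma adjusted p = 0.0708), with 0.0108 in the fit with the replicate block and 0.0284 without Epor-eGFP- library 1.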

How the data were processed

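The authors deposited FPKM values, per the file headers, in a table of 11489 genes and 6 libraries. The submitters' processing notes name Cufflinks 2.2.1, TopHat2 2.1.0, Trimmomatic 0.35, bcl2fastq 2.19.1.403 and the build mm10. The sources used here give no annotation, filter or further scaling. Every listed gene reaches 1.00 FPKM in some library, and totals ran from 467176 to 519650 FPKM. Column numbers (0 to 2) match no single labelled sample (1 to 3), so columns were assigned to groups.

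The 10964 genes whose mean reached 1 FPKM were fitted with limma 3.58.1 in R 4.3.3 on log2(FPKM + 1), with group as the only term and a mean-variance trend. Two-sided p received Benjamini-Hochberg adjustment across every gene in the fit, with calls at 0.05. Fold changes on this scale understate those of low genes. Same-numbered libraries deviated together (r = 0.252, 0.377 and 0.348 over genes), a pairing seen in the data and not given by the labels. The main fit leaves this pairing out, and so do its SE and p-values. Only the alternative called the replicate block, which adds the column number as a term, takes the numbers as pairs. Positions are GENCODE M21 (GRCm38).

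Named are the 10 genes, up to 4 called genes per pathway list by largest absolute change (or 3 by highest mean where none was called), Epor and Adgre1, all listed Apoe neighbours, and the 3 nearest profiles of Nr1h3, Pparg, Abca1 and Apoe. The 10 genes and all lists were chosen with earlier results of these data known. Some genes that this rule names are not reported here.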

Additional observations from a re-analysis of the deposited data

How the results depend on the processing

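Over 18 alternatives (pseudocounts, filters, scalings, no trend, a replicate block, and libraries left out), Nr1h3, Pparg, Abca1, Lpl, Apoe, Abcg1, Nr1h2 and Apoc2 kept the sign of their difference: Nr1h3 ran from 3.31 to 4.23, Pparg from 1.41 to 2.11, Abca1 from 1.75 to 2.48, Lpl from 1.64 to 2.35, Apoe from 0.58 to 1.26 and Apoc2 from −2.59 to −2.04 on the log2 scale. Rxra changed sign without Epor-eGFP+ library 2 (−0.29), without both libraries numbered 2 (−0.34) and without Epor-eGFP- library 2 (−0.0041), and Mylip without Epor-eGFP+ library 1 (0.02). With 1 library left out, Rxra ran from −0.29 to 0.37, Mylip from −0.52 to 0.02, Apoc1 from −0.21 to 0.74 and Adgre1 from −0.07 to 0.45. Without both libraries numbered 2, Apoc1 was at −0.06 and Adgre1 at −0.05, and without Epor-eGFP+ library 2 they were at −0.21 and −0.07. Clptm1 turned to 0.02 when libraries were rescaled to a common total. The tests called 2489 genes higher and 2883 lower, with 1611 to 2428 and 2060 to 2700 when 1 library was left out, the fewest without Epor-eGFP+ library 0, and for pathway genes 11 to 21 higher and 26 to 33 lower. Without both libraries numbered 0 they called 482 higher and 915 lower, and 3 and 18 pathway genes, with 2 libraries a group. In that setting Thra, Lipa, Cyp27a1, Clu and Pvrl2 lost their calls, as did Tgm2, Cd36, Cpt1a and Soat1. Rescaling to a common total gave 3056 higher and 2082 lower (59.5% higher against 46.3%) and moved the median of all genes from −0.01 to 0.08. The replicate block gave 3066 higher and 3335 lower, and 19 and 36 pathway genes, and of the 44 named genes outside the 10 it changed the call of Bcl3 and of Slc11a1 and Dbndd2, which were picked for their likeness to Apoe, and of no other. Of Fabp4, Srebf1, Ncor1, Smpdl3a and Arl4c, singled out after their values were seen, it changed the call of Fabp4 alone. The read depth is unknown, so no counting limit is given.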

Other observations

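Abcg4, a sterol transporter related to Abcg1, and Thrb, a thyroid hormone receptor that pairs with RXR, were in the table but under the mean of 1 FPKM needed for the fit. Abcg4 was at 0.0620, 0.0167 and 0.0162 FPKM without the reporter and at 2.26, 1.78 and 1.5 with it. It was highest in Epor-eGFP+ library 0 and lowest in library 2, unlike Abca1 and Abcg1. Thrb was at 0.102, 0.121 and 0.0392 FPKM without the reporter and at 0.484, 0.281 and 1.27 with it, in the library order of Nr1h3.

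Fabp4, the fatty acid carrier most used as a sign of PPAR gamma activity, was at 14.7, 3.05 and 15.4 FPKM without the reporter and at 59.7, 14.5 and 72.2 with it. Each number was higher in Epor-eGFP+, the groups overlapped, and the test gave no call for Fabp4 (log2 fold change 2.02, SE 0.74, limma adjusted p = 0.0582). With the replicate block, which pairs the numbers, Fabp4 passed (SE 0.07, limma adjusted p = 0.000942), as it did without Epor-eGFP+ library 1 (0.0154) and with libraries rescaled to a common total (0.0408) or upper quartile (0.0482). It was lowest in library 1 of both groups. Abcg4, Thrb and Fabp4 were singled out after their values were seen.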
